A study of Mus musculus with 24 samples.

Results

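The 9 genes described here encode receptors through which cytokines and growth factors act on blood stem and progenitor cells: Kit, Tek, Csf1r, Epor, Csf3r, Csf2ra, Il3ra, Csf2rb and Il7r. They were picked by name, with earlier results of these data known, and they are 9 of the 55487 genes counted. Their transcripts were followed in 24 Smart-seq2 libraries of sorted hematopoietic stem cells (HSCs) of the mouse, from which all blood lineages arise. The series concerns the aging-related role of PUS10, a pseudouridine synthase, which is an enzyme that isomerises uridine in RNA. The libraries form 3 experiments with separate controls: cells overexpressing PUS10 (PUS10-OE, n = 3) and vector controls (Vector, n = 3), cells in which miR-139, a microRNA, was knocked down (miR139-KD, n = 6) and a non-target control (NTC, n = 6), and libraries labelled Pus10-KO (n = 3) and Pus10-WT (n = 3). The labels name the cell type and these genotypes and give no strain, sex, age, sort gate, or route by which PUS10 or the knockdown was introduced. They do not give the number of animals behind each group, so every p-value below rests on the spread from library to library, part of which may be technical.

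Kit, Tek and Csf1r are receptor tyrosine kinases: ligand binding joins 2 receptors, whose own kinase domains then phosphorylate each other. Epor, Csf3r, Il7r, Csf2ra, Il3ra and Csf2rb belong to the cytokine receptor superfamily, which has no kinase of its own and signals through bound Janus kinases to STAT transcription factors. In bone marrow, Kit and Tek are known for holding stem cells in their niche, Epor, Csf1r, Csf3r and Il7r for the growth of red cells, macrophages, neutrophils and lymphocytes, and the interleukin-3 and GM-CSF receptors for early myeloid cells.

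Counts in genes ranged from 40.9 M to 42.6 M in PUS10-OE libraries and from 34.2 M to 47.3 M in Vector libraries (M, mega). The range was 9.87 M to 14.4 M in miR139-KD and 11.8 M to 14.7 M in NTC, and 11.9 M to 18.2 M in Pus10-KO and 14.5 M to 16.5 M in Pus10-WT. Pus10 transcripts stood at 315, 274 and 258 CPM (counts per mega-count of effective, TMM-scaled library size) in PUS10-OE and at 57.4, 102 and 87.8 CPM in Vector. In the libraries labelled Pus10-KO they were not lower than in the control, with 32.9, 31.2 and 33.3 CPM against 17.8, 29.0 and 30.6 CPM in Pus10-WT. Every Pus10-KO library was above every Pus10-WT library, with a log2 fold change of 0.31 and an edgeR adjusted p of 0.951. A count per gene cannot tell which exons were read. Mature miR-139 is too short for such libraries and was not measured. All 8 HSC markers examined were detected in each of the 6 groups. Markers of mature lineages were abundant in 2 of the 3 experiments: summed neutrophil markers reached 1353 to 18015 CPM in miR139-KD and 1478 to 19067 CPM in NTC libraries, against 68.6 to 72.9 CPM in PUS10-OE and 61.0 to 97.5 CPM in Vector libraries. In such bulk libraries, fewer cells of a type and less RNA per cell cannot be told apart.

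Of the 26 tests that could be made on the receptor genes over the 3 comparisons, 1 passed: Csf3r, the receptor of granulocyte colony-stimulating factor, was lower in miR139-KD than in NTC. A gene was called when edgeR's quasi-likelihood test gave p under 0.05 after Benjamini-Hochberg adjustment over every tested gene. In PUS10-OE against Vector 0 of 8 tested receptor genes were called, where 0% of 14834 tested genes were called. Pus10 itself, the overexpressed gene, was not called in that fit either (log2 fold change 1.76, edgeR adjusted p = 0.278). A missing call there therefore does not show that a gene was unchanged. DESeq2 called 1 of the receptor genes in this comparison, Csf3r, and 1.11% of the 22649 genes with a count. At an unadjusted edgeR p under 0.05 there were 3 (Kit, Csf1r and Csf3r), beside 8.19% of all genes. In 4 (Kit, Epor, Csf1r and Csf3r) every PUS10-OE library lay below every Vector library, as held for 6.17% of all genes. The reverse, with every PUS10-OE library above every Vector library, held for 0 of the 8 and for 1358 of the 14834 tested genes. For the other comparisons the share of separate groups is given for either direction. In miR139-KD against NTC 1 of 9 was called, where 2.72% of 13295 genes were called. DESeq2 called 3 (Csf3r, Tek and Il7r) in that comparison and 4.51% of the 24387 genes with a count. An unadjusted edgeR p under 0.05 was found there for 4 (those 3 and Kit), beside 16.0% of all tested genes. There the groups did not overlap in 2 (Tek and Il7r), beside 3.38% of all genes. In Pus10-KO against Pus10-WT 0 of 9 were called, where 0.0614% of 14657 genes were called. An unadjusted p under 0.05 in edgeR was found for 0, beside 6.86% of all tested genes. DESeq2 called 0 in this comparison, beside 1.05% of the 22642 genes with a count. The groups overlapped there in all 9, and were separate in 13.5% of all genes. The median log2 fold change of the receptor genes that were tested was -0.31 for PUS10-OE, 0.07 for miR139-KD and 0.03 for Pus10-KO, beside medians over all tested genes of 0.0059, 0.02 and -0.0034. The DESeq2 shares are over every gene with a count, a wider set than the filtered genes behind the edgeR and overlap shares. This wider base lowers the DESeq2 shares.

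**Figure D1:**
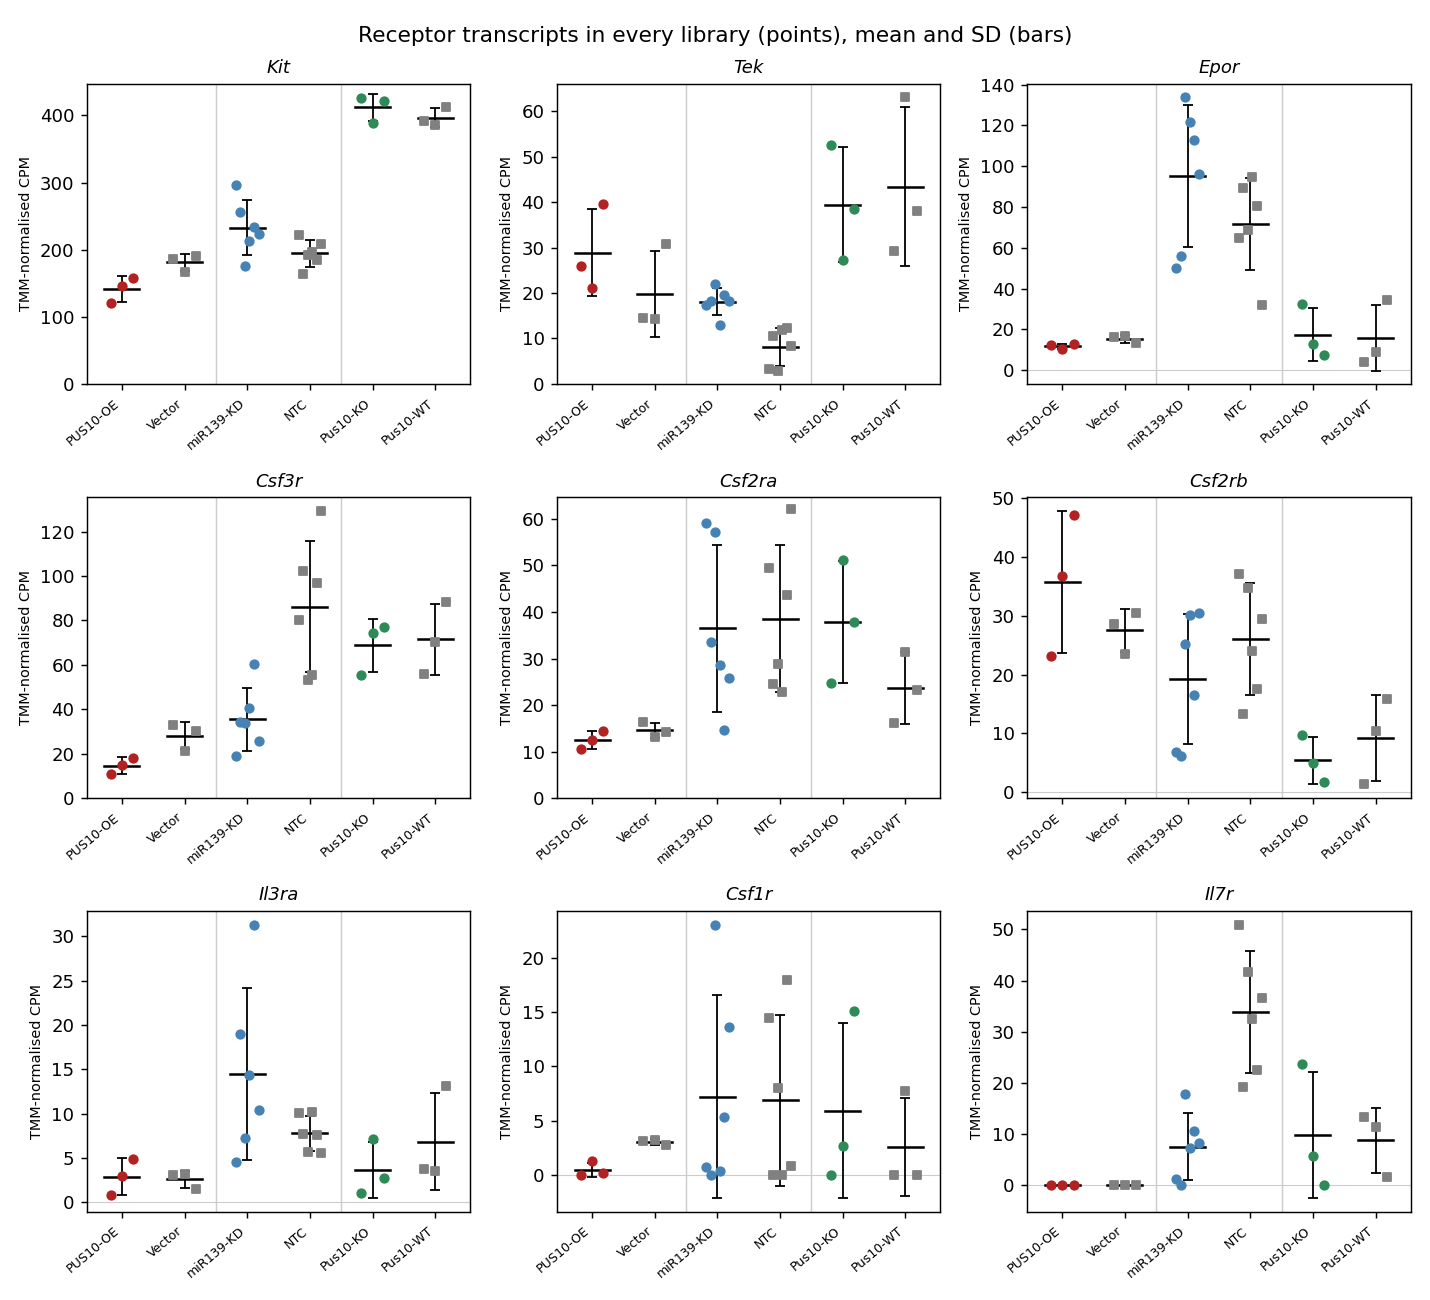
TMM-normalised CPM of the 9 receptor genes in each library (points) of the 6 groups, with the mean (horizontal bar) and SD (error bar) of each group. Csf3r and Il7r sit lower in miR139-KD than in NTC and Tek higher, with Csf3r ranges that overlap, while Pus10-KO and Pus10-WT points overlap for all 9 genes.

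Kit, the receptor of stem cell factor, is a standard surface marker of HSCs (ENSMUSG00000005672.12, chromosome 5, 75574916 to 75656722, plus strand, GRCm38). It was measured at 121, 146 and 158 CPM in PUS10-OE libraries and at 186, 167 and 191 CPM in Vector libraries. All 3 PUS10-OE libraries lay below the lowest Vector library, by a margin that was small beside the spread within the groups. The log2 fold change was -0.37 (SE 0.132, 95% interval -0.68 to -0.07), with an edgeR adjusted p of 0.508. In miR139-KD, Kit ran from 176 to 296 CPM with a median of 229, against 164 to 222 CPM with a median of 195 in NTC. The groups overlapped, 5 of 6 miR139-KD libraries were above the NTC median, and the log2 fold change was 0.27 (SE 0.122, adjusted p = 0.288 in edgeR). In the libraries labelled Pus10-KO, Kit stood at 425, 389 and 421 CPM, against 392, 385 and 413 CPM in Pus10-WT. Kit was the most evenly measured receptor in that experiment, and its log2 fold change of 0.03 had a 95% interval from -0.18 to 0.24 (edgeR adjusted p = 0.999). Ordered by mean level, Kit went from Pus10-KO (412 CPM) and Pus10-WT (397 CPM) through miR139-KD (233), NTC (195) and Vector (181) to PUS10-OE (142). Of the neighbours in this order, Pus10-WT was separate from miR139-KD and Vector from PUS10-OE, and the other neighbours overlapped. Such differences between experiments fall together with experiment and depth and cannot be told apart from them.

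Tek, also called Tie2, is the receptor of the angiopoietins and is carried by quiescent HSCs and by endothelial cells (ENSMUSG00000006386.15, chromosome 4, 94739289 to 94874976, plus strand, GRCm38). It was measured at 13.01 to 22.1 CPM with a median of 18.2 in miR139-KD and at 2.88 to 12.3 CPM with a median of 9.42 in NTC. Every miR139-KD library was higher than every NTC library. The log2 fold change was 1.16 (SE 0.387, 95% interval 0.33 to 1.98), a 2.23-fold difference that missed the threshold in edgeR (adjusted p = 0.139) and passed it in DESeq2 (adjusted p = 0.0373). Beside it, 2 of the 8 HSC markers were called higher in miR139-KD, Slamf1 and Ctnnal1, where 1.41% of all tested genes were called higher. Positive fold changes were found for 8 of 8, with summed HSC markers of 285 to 464 CPM in miR139-KD and 182 to 395 CPM in NTC. Markers of megakaryocytes, the platelet precursors, were higher as well, with 6 of 7 tested called higher, beside the same 1.41% of all tested genes. Their summed levels were 1176 to 2832 CPM in miR139-KD against 90.0 to 334 CPM in NTC. The part of either marker group in the Tek values was not tested. Of the 5 endothelial markers 4 were detected in each of these groups, and the cadherin Cdh5 was at 0 in all their libraries. The most abundant was Plvap, at 3.85 to 8.48 CPM in miR139-KD and 3.00 to 10.8 CPM in NTC. The summed endothelial markers were 8.80 to 19.7 CPM in miR139-KD and 3.00 to 20.02 CPM in NTC, and their part in the Tek values was not tested.

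The other experiments gave smaller Tek differences. In PUS10-OE it stood at 25.9, 21.2 and 39.6 CPM, against 14.4, 14.2 and 30.8 CPM in Vector. The groups overlapped through 1 high Vector library, and the log2 fold change of 0.53 (SE 0.375) had an edgeR adjusted p of 0.820. In Pus10-KO it stood at 52.6, 27.4 and 38.5 CPM, against 29.3, 63.1 and 38.0 CPM in Pus10-WT, with a log2 fold change of -0.16 (95% interval -0.996 to 0.68, edgeR adjusted p = 0.999). Mean Tek levels were highest in Pus10-WT (43.4 CPM) and Pus10-KO (39.5 CPM), followed by PUS10-OE (28.9), Vector (19.8), miR139-KD (18.1) and NTC (8.17), and of the neighbours in this order only miR139-KD and NTC did not overlap.

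Csf1r, the receptor of macrophage colony-stimulating factor and interleukin-34, was uneven between libraries, from 0 counts in 6 of the 24 to 303 counts in 1 (ENSMUSG00000024621.16, chromosome 18, 61100598 to 61132149, plus strand, GRCm38). It stood at 0.0269, 1.26 and 0.156 CPM in PUS10-OE libraries and at 3.12, 3.23 and 2.74 CPM in Vector libraries, 53 and 341 counts in all. The PUS10-OE libraries were all lower, and the log2 fold change of -2.68 had a 95% interval from -5.35 to -0.0046 (edgeR adjusted p = 0.608). In miR139-KD it ran from 0 to 23.0 CPM with a median of 3.07, against 0 to 17.9 CPM with a median of 4.46 in NTC. Csf1r was patchy there, with 0 counts in 1 miR139-KD library and in 2 NTC libraries, and the log2 fold change of 0.07 had an interval from -2.92 to 3.07. In Pus10-KO it stood at 0, 2.69 and 15.1 CPM, against 0, 7.76 and 0 CPM in Pus10-WT, with an interval from -4.30 to 6.66. A change of many-fold in either direction would not have been detectable in the miR-139 and Pus10-KO experiments. Beside these values, summed monocyte and macrophage markers came to 424 to 567 CPM in PUS10-OE and 464 to 546 CPM in Vector, most of it Lyz2, a lysozyme that early myeloid cells also express, with the complement genes C1qa, C1qb and C1qc at 0 in both groups. Csf1r overlaps the opposite-strand gene Hmgxb3, and Smart-seq2 keeps no strand, so reads of the overlap cannot be assigned with certainty. Reads entered as ambiguous are not in the counts of either gene.

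Epor, the erythropoietin receptor, had higher means in the miR-139 experiment, 95.1 CPM in miR139-KD and 71.7 CPM in NTC, than in the other groups, at 11.8 to 17.5 CPM, and the lowest NTC library lay below the highest Pus10-KO and Pus10-WT libraries (ENSMUSG00000006235.6, chromosome 9, 21958897 to 21963506, minus strand, GRCm38). In miR139-KD it ran from 50.4 to 134 CPM with a median of 105, against 32.0 to 94.5 CPM with a median of 74.7 in NTC. The ranges overlapped widely, and the log2 fold change of 0.42 (SE 0.277, 95% interval -0.17 to 1.01) had an edgeR adjusted p of 0.514. In PUS10-OE Epor stood at 12.3, 10.3 and 12.7 CPM, against 16.3, 16.9 and 13.2 CPM in Vector. All 3 PUS10-OE libraries were lower, the closest pair being 12.7 CPM in PUS10-OE and 13.2 CPM in Vector, and the log2 fold change of -0.41 (SE 0.219) had an edgeR adjusted p of 0.722. In Pus10-KO it stood at 32.3, 12.7 and 7.37 CPM, against 4.30, 9.20 and 34.2 CPM in Pus10-WT. Each of these groups held 1 library far above the others, and the interval of the log2 fold change of 0.11 ran from -1.81 to 2.03 (edgeR adjusted p = 0.999).

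Red cell markers were also scarce in the PUS10 overexpression experiment. Summed erythroid markers were 1168 to 9697 CPM in miR139-KD and 657 to 11788 CPM in NTC, 442 to 5216 CPM in Pus10-KO and 272 to 1618 CPM in Pus10-WT, and 39.3 to 87.4 CPM in PUS10-OE and 25.2 to 50.7 CPM in Vector. The NTC library with the lowest erythroid sum, 657 CPM, had the lowest NTC value of Epor, 32.0 CPM, and the miR139-KD library with the lowest sum, 1168 CPM, had the lowest Epor value of its group, 50.4 CPM. The miR139-KD library with the highest sum, 9697 CPM, had 56.0 CPM of Epor, close to that lowest value. In Pus10-KO the library with the highest erythroid sum, 5216 CPM, had the lowest Epor level, 7.37 CPM. The part of erythroid cells in the Epor levels was not tested.

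Csf3r is known for driving neutrophil production and, through its ligand G-CSF, for releasing stem cells into blood (ENSMUSG00000028859.14, chromosome 4, 126024550 to 126044440, plus strand, GRCm38). The 6 miR139-KD libraries had 19.1, 34.5, 33.6, 40.6, 60.2 and 25.6 CPM, a median of 34.0, and the 6 NTC libraries 80.1, 102, 53.0, 55.2, 96.8 and 129 CPM, a median of 88.4. Every miR139-KD library lay below the NTC median, and the ranges overlapped only through replicate 5 of miR139-KD, at 60.2 CPM, which was above NTC replicates 3 and 4. Csf3r fell by 1.27 on the log2 scale (SE 0.282, 95% interval -1.87 to -0.66), a 2.41-fold lower level, with an edgeR adjusted p of 0.0287 and a DESeq2 adjusted p of 7.45e-04. The edgeR call was lost when 1 library was left out in 7 of the 12 cases, with the log2 fold change at -1.11 to -1.25 in those fits. Without NTC replicates 2, 5 or 6 the adjusted p was 0.0654, 0.0533 and 0.0555, and without miR139-KD replicates 1, 2, 3 or 6 it was 0.0539, 0.0607, 0.0549 and 0.0620. Leaving out NTC replicate 6 together with miR139-KD replicate 1, a choice made after seeing the data, gave -0.98 (edgeR adjusted p = 0.0885).

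Neutrophil markers were read beside Csf3r. Summed neutrophil markers had a median of 13890 CPM in miR139-KD and of 9120 CPM in NTC. Of the 10 markers 0 were called, where 2.72% of all tested genes were, and 8 of 10 had positive fold changes. The lowest sums of both groups, 1353 CPM in replicate 1 of miR139-KD and 1478 CPM in replicate 3 of NTC, came with the lowest Csf3r values of both groups, 19.1 CPM and 53.0 CPM. The libraries with sums of 16732 CPM and above were miR139-KD replicates 2, 4 and 5, with 34.5, 40.6 and 60.2 CPM of Csf3r, and NTC replicates 5 and 6, with 96.8 and 129 CPM. In between, NTC replicates 2, 4 and 1 had sums of 4775, 5356 and 12884 CPM and Csf3r at 102, 55.2 and 80.1 CPM. Replicates 6 and 3 of miR139-KD had sums of 9617 and 11047 CPM and Csf3r at 25.6 and 33.6 CPM. The part of neutrophils in the Csf3r values was not tested.

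In the PUS10 overexpression experiment the direction for Csf3r was the same. It stood at 10.8, 15.0 and 18.2 CPM in PUS10-OE, against 32.8, 21.4 and 30.3 CPM in Vector. All 3 PUS10-OE libraries were below all 3 Vector libraries, and the log2 fold change of -0.96 (SE 0.271, 95% interval -1.58 to -0.33) missed the threshold in edgeR (adjusted p = 0.418) and passed it narrowly in DESeq2 (adjusted p = 0.0488). Neutrophil markers were scarce in both groups, with S100a9 and Ngp at 0 in all 6 libraries and Prtn3, an early granule protease, making up most of the sums of 68.6 to 72.9 CPM in PUS10-OE and 61.0 to 97.5 CPM in Vector. Of the 10 neutrophil markers 4 could be tested there, 0 were called and 4 had negative fold changes, with a median log2 fold change of -1.67, and their part in the Csf3r values was not tested. In Pus10-KO Csf3r stood at 55.2, 74.3 and 77.3 CPM, against 56.1, 70.2 and 88.2 CPM in Pus10-WT. These ranges coincided, and the log2 fold change of -0.07 had an interval from -0.60 to 0.46 (edgeR adjusted p = 0.999).

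**Figure D2:**
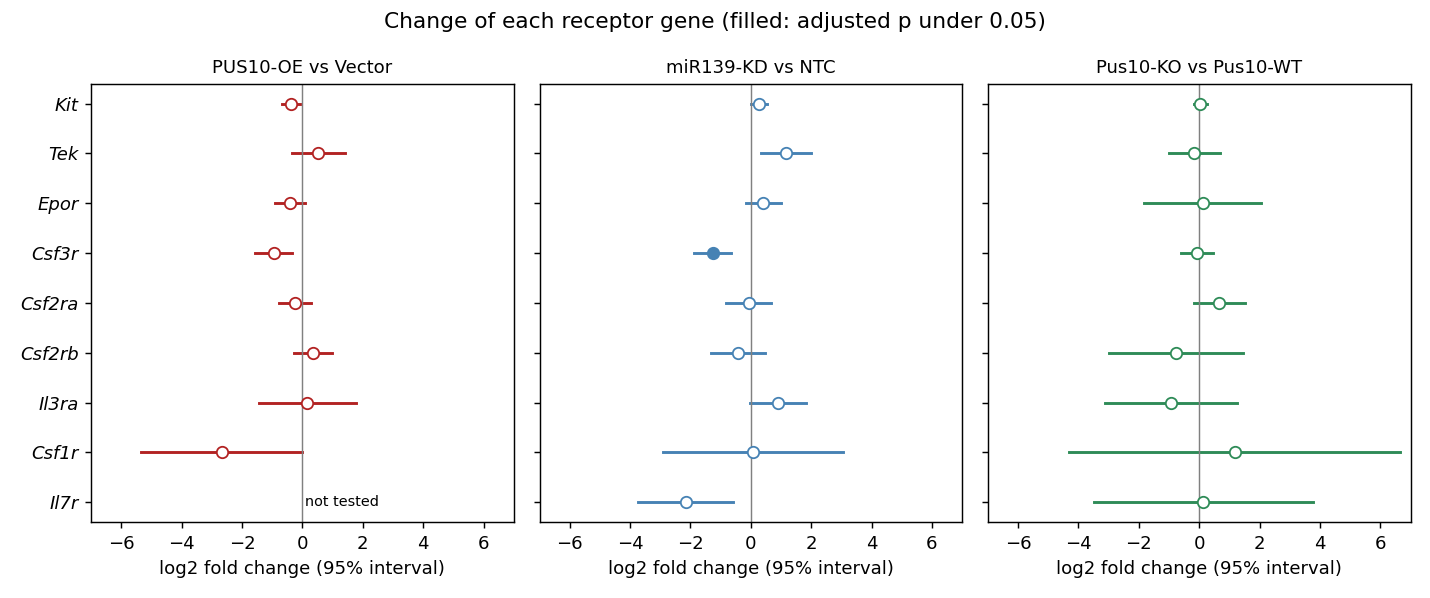
Log2 fold change of each receptor gene (circle) with its 95% interval (line) in PUS10-OE against Vector, miR139-KD against NTC and Pus10-KO against Pus10-WT, with filled circles for an edgeR adjusted p under 0.05. The 1 filled circle is Csf3r in miR139-KD at -1.27, and the widest intervals belong to Csf1r and Il7r in Pus10-KO against Pus10-WT.

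Csf2ra and Il3ra are the ligand-binding alpha chains of the GM-CSF and interleukin-3 receptors, and Csf2rb is the beta chain that both use to signal. Csf2ra (ENSMUSG00000059326.7, chromosome 19, 61223957 to 61228429, minus strand, GRCm38) stood at 24.7, 51.1 and 37.8 CPM in Pus10-KO, against 16.1, 31.5 and 23.3 CPM in Pus10-WT. All 3 Pus10-KO libraries were above the Pus10-WT median, the ranges overlapped, and the log2 fold change of 0.66 (SE 0.363, 95% interval -0.19 to 1.503) had an edgeR adjusted p of 0.848. In miR139-KD Csf2ra ran from 14.7 to 59.2 CPM with a median of 31.1, against 22.8 to 62.0 CPM with a median of 36.2 in NTC, and the log2 fold change was -0.07 (95% interval -0.81 to 0.68). In PUS10-OE it stood at 10.6, 12.5 and 14.5 CPM, against 16.3, 13.2 and 14.3 CPM in Vector, with a log2 fold change of -0.24 (SE 0.228, adjusted p = 0.898 in edgeR).

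Il3ra (ENSMUSG00000068758.8, chromosome 14, 14346275 to 14356011, plus strand, GRCm38) had a lower mean than Csf2ra per kilobase of exon in all 6 groups. In CPM it ran from 4.48 to 31.3 CPM with a median of 12.4 in miR139-KD and from 5.59 to 10.2 CPM with a median of 7.61 in NTC. The miR139-KD libraries spread 6.98-fold and the NTC libraries 1.81-fold, so the higher mean of miR139-KD rested on libraries that differed much among themselves, and the log2 fold change of 0.90 (SE 0.439, 95% interval -0.04 to 1.84) had an edgeR adjusted p of 0.335. Mast cell and basophil markers, whose cells carry this receptor, summed to 20.8 to 2022 CPM in miR139-KD and 31.5 to 81.2 CPM in NTC. Replicate 6, the library with 2022 CPM of these markers, had 10.5 CPM of Il3ra, and replicate 5, with the highest Il3ra level of 31.3 CPM, had 25.7 CPM of the markers. In PUS10-OE Il3ra stood at 0.779, 2.99 and 4.92 CPM, against 3.09, 3.17 and 1.49 CPM in Vector, and in Pus10-KO at 0.986, 7.18 and 2.74 CPM, against 3.74, 3.56 and 13.1 CPM in Pus10-WT. Both pairs of groups overlapped, with edgeR adjusted p of 0.991 and 0.966. The antisense gene Gm48860 overlaps Il3ra, and in libraries without strand reads of the overlap cannot be assigned with certainty. Reads entered as ambiguous are not in the counts of either gene.

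Csf2rb (ENSMUSG00000071713.6, chromosome 15, 78325752 to 78353847, plus strand, GRCm38) has a near-identical neighbour on the other strand, Csf2rb2, a beta chain found in mice that serves interleukin-3 alone, so reads could be split between the 2 genes and the levels of both are uncertain. Csf2rb stood at 23.1, 36.8 and 47.1 CPM in PUS10-OE, against 28.6, 23.4 and 30.4 CPM in Vector. The groups overlapped, with a log2 fold change of 0.36 (SE 0.274, adjusted p = 0.837 in edgeR). In miR139-KD it ran from 6.18 to 30.4 CPM with a median of 20.8, against 13.3 to 37.0 CPM with a median of 26.7 in NTC, and the log2 fold change of -0.43 (SE 0.416) had an edgeR adjusted p of 0.700. In Pus10-KO it stood at 9.71, 4.93 and 1.79 CPM, against 1.36, 10.5 and 15.8 CPM in Pus10-WT, with an interval of the log2 fold change from -2.99 to 1.45. Csf2rb2 was at or below 8.60 CPM in every library. It was not called in PUS10-OE (edgeR adjusted p = 0.995) or in miR139-KD (0.897), and in Pus10-KO against Pus10-WT it was too low to be tested.

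Il7r, the interleukin-7 receptor that lymphoid progenitors depend on, was absent from 1 experiment and present in the others (ENSMUSG00000003882.5, chromosome 15, 9505788 to 9530176, minus strand, GRCm38). It had 0 counts in all 3 PUS10-OE and all 3 Vector libraries, the most deeply sequenced of the series. With 3 counts in the group as the limit, this allows up to 0.0240 per mega-count in genes over the PUS10-OE libraries. Over the Vector libraries the limit was 0.0253. These limits use library sizes without TMM scaling, unlike the CPM elsewhere, and cover counting error only. The miR139-KD libraries had 1.27, 0, 17.9, 7.21, 10.6 and 8.27 CPM, and the NTC libraries 50.9, 19.2, 41.7, 32.4, 22.5 and 36.7 CPM. Every miR139-KD library was below every NTC library, the closest pair being 17.9 CPM in miR139-KD and 19.2 CPM in NTC. The log2 fold change was -2.16 (SE 0.740, 95% interval -3.74 to -0.58), which missed the threshold in edgeR (adjusted p = 0.152) and passed it in DESeq2 (adjusted p = 0.0383). In Pus10-KO Il7r stood at 23.7, 5.62 and 0 CPM, against 13.2, 11.4 and 1.54 CPM in Pus10-WT, and the interval ran from -3.48 to 3.76 (edgeR adjusted p = 0.999).

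Some lymphoid markers were called in the same comparison. In miR139-KD 3 of 9 tested B cell and plasma cell markers were called lower (Cd79a and Cd79b, which carry the B cell receptor's signal, and the B cell factor Pax5). Over all tested genes 1.31% were called lower. The B cell and plasma cell sums ran from 185 to 15194 CPM in miR139-KD and from 1151 to 17019 CPM in NTC. Of 3 tested T and NK cell markers 1 was called lower, the kinase Lck, beside the same 1.31% of all tested genes. The T and NK cell sums were 198 to 400 CPM in miR139-KD and 353 to 546 CPM in NTC, with Cd3e, Cd3g, Cd8a and Gzma at 0 in both groups. The most abundant of these markers was Nkg7, at 189 to 392 CPM in miR139-KD and 299 to 487 CPM in NTC. Replicate 5 of each group held the highest B cell and plasma cell sum, 15194 and 17019 CPM, and had 10.6 CPM of Il7r in miR139-KD and 22.5 CPM in NTC. With both of these libraries left out, an alternative chosen after seeing the data, the log2 fold change of Il7r was -2.37 (edgeR adjusted p = 0.209) and that of Csf3r -1.44 (edgeR adjusted p = 0.0231). The 3 Pus10-WT libraries carried 17819 to 25166 CPM of B cell and plasma cell markers, led by the immunoglobulin gene Igkc, against 103 to 107 CPM in Pus10-KO, and their Il7r levels overlapped. The part of lymphoid cells in the Il7r values was not tested.

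**Figure D3:**
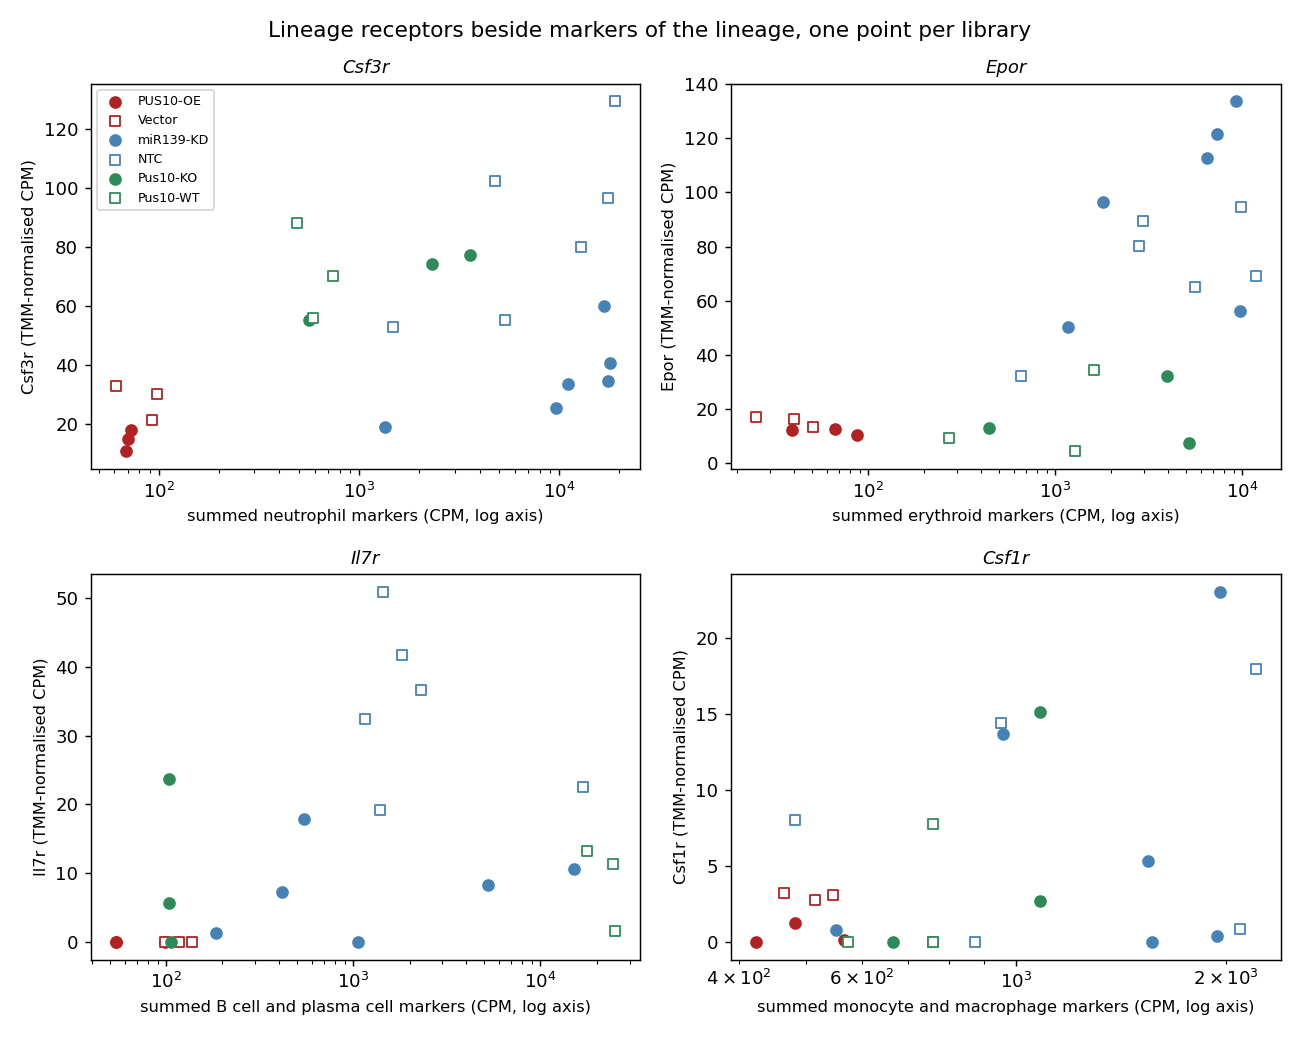
Levels of 4 lineage receptors (vertical axes, TMM-normalised CPM) against the summed CPM of markers of the matching lineage (horizontal log axes), 1 point per library, with filled circles for PUS10-OE, miR139-KD and Pus10-KO and open squares of the same colour for their controls. Csf3r runs from 19.1 to 60.2 CPM in miR139-KD libraries with neutrophil sums of 1353 to 18015 CPM and from 53.0 to 129 CPM in NTC libraries with sums of 1478 to 19067 CPM, and the 3 Pus10-WT libraries with 17819 to 25166 CPM of B cell and plasma cell markers have no more than 13.2 CPM of Il7r.

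Because the knocked-down miRNA acts through short matches to its targets, the 3′ untranslated regions of the receptors were searched for its seed. The mature sequences of miR-139, from RefSeq (GRCm38.p6), are shown with the seed, bases 2 to 8, in capitals. Both arms come from 1 hairpin on the plus strand of chromosome 7, at chr7:101475382-101475403 for the 5p arm and chr7:101475418-101475439 for the 3p arm, and their seeds differ.
miR-139-5p: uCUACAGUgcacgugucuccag
miR-139-3p: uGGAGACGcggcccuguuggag
Matches were counted for 7 bases pairing with seed bases 2 to 8, and for 6 bases pairing with bases 2 to 7 followed by A. The longest annotated 3′ untranslated region of each of the 9 receptors held 0 matches to either arm, among 20996 genes of which 19.4% held a match to the 5p seed and 14.1% to the 3p seed. This says only that these letters are not in these annotated regions, which ranged from 162 bases in Epor to 2569 bases in Il7r.

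The start regions of the 3 receptors that stood apart most in miR139-KD, Csf3r, Il7r and Tek, and of Epor, are shown to place the genes beside factors of blood lineages. Each runs from 250 bases before to 50 bases after the RefSeq start (GRCm38.p6), on the gene's strand. Capitals mark matches on either strand to 4 motifs: AGATAA, bound by the GATA family, AGGAAGT, bound by the ETS family, TGTGGT, bound by the RUNX family, and TTGCNNAA, bound by the C/EBP family.
Csf3r, chr4:126024409-126024708, plus strand: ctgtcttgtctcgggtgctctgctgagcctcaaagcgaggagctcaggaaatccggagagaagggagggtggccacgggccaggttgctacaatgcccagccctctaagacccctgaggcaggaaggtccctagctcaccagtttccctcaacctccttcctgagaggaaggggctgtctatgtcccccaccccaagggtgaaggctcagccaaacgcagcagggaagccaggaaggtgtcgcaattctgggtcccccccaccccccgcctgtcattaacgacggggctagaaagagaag
Il7r, chr15:9529827-9530126, minus strand: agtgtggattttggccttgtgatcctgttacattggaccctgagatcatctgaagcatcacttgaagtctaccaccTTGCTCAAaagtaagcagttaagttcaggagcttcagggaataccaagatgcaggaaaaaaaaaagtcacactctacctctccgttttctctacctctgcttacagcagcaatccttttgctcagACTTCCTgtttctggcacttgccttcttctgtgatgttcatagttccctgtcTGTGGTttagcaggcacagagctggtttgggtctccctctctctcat
Tek, chr4:94739039-94739338, plus strand: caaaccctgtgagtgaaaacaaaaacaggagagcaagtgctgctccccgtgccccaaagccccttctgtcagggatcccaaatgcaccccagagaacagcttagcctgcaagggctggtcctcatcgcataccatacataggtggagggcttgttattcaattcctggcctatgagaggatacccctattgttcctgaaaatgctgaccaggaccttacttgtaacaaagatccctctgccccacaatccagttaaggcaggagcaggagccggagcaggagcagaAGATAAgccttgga
Epor, chr9:21963527-21963826, minus strand: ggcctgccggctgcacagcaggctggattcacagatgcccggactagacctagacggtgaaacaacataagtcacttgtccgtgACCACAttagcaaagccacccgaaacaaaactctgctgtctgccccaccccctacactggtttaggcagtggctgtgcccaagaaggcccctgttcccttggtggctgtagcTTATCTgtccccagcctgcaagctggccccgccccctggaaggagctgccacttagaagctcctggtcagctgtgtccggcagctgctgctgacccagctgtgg
The Csf3r window held none of the 4 motifs. Il7r held a C/EBP, an ETS and a RUNX match, Tek a GATA match after its start, and Epor a RUNX and a GATA match, with no overlap between matches. Of the other receptors, Il3ra held an ETS match and a C/EBP match, Kit and Csf2ra held none, and no window was examined for Csf1r and Csf2rb. Over 32851 promoter windows of this length, 11.2% held the GATA letters, 9.35% the ETS, 16.8% the RUNX and 10.8% the C/EBP letters, so single matches are common. A match in such a window is a string of letters and no measure of binding.

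Set against each other per kilobase of exon, the receptors took a different order in the 3 experiments. Kit led in 4 groups, with 15.9 CPM per kb in PUS10-OE and 20.3 in Vector, and 46.2 in Pus10-KO and 44.5 in Pus10-WT, in each group above the range of the next receptor. In the remaining 2 groups Epor led, with 47.8 CPM per kb in miR139-KD and 36.1 in NTC, and its range overlapped that of the next receptor, Kit at 26.2 in miR139-KD and Csf3r at 23.9 in NTC. Il7r ranked 8 of 9 in miR139-KD, at 1.61 CPM per kb, and 5 of 9 in NTC, at 7.27. In PUS10-OE the receptors at ranks 2 to 6 (Tek, Epor, Csf2rb, Csf2ra and Csf3r) lay between 6.13 and 4.07 CPM per kb with overlapping neighbours, and in Vector Csf3r held rank 2 at 7.80 and Tek rank 5 at 4.21. Il3ra and Csf1r were low throughout the PUS10 overexpression experiment, at 0.977 and 0.0835 CPM per kb in PUS10-OE and 0.871 and 0.525 in Vector.

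**Figure D4:**
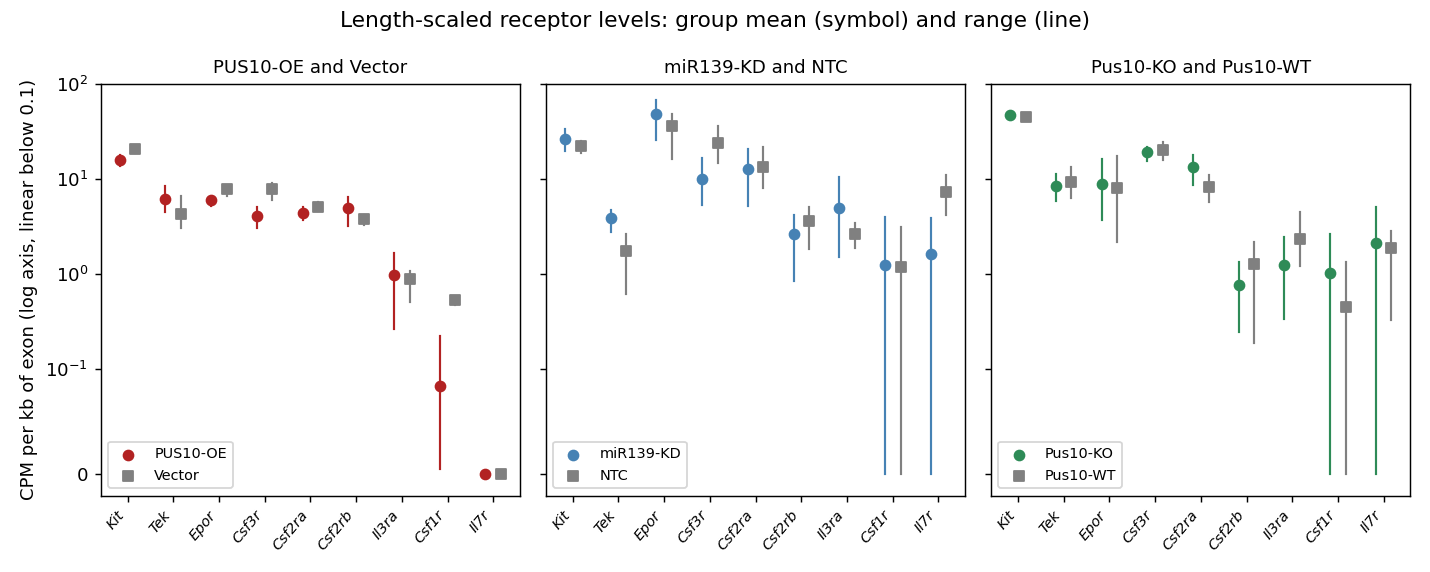
Group mean (symbol) and range over libraries (line) of receptor transcripts in CPM per kb of exon, on a log axis that is linear below 0.1, for PUS10-OE and Vector, miR139-KD and NTC, and Pus10-KO and Pus10-WT. Kit stands above every other receptor in the outer panels, at 15.9 to 46.2 CPM per kb, and Epor has the highest mean in the middle panel.

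The genes around these receptors were read from 5 lists of 111 further genes: 16 ligands, 38 other receptors, 24 signal transducers, 23 negative regulators and 10 targets of the transcription factor STAT5. The lists were written with earlier results of these data known. In PUS10-OE against Vector 0 of 96 tested genes of these lists were called by edgeR, and 12 had an unadjusted edgeR p under 0.05, beside 8.19% of all tested genes. DESeq2 called 5 genes of the lists there and 1.11% of the 22649 genes with a count, a wider set than edgeR tested. In miR139-KD against NTC 8 of 93 were called, 2 higher and 6 lower, where 1.41% of all genes were called higher and 1.31% lower. In Pus10-KO against Pus10-WT 0 of 96 were called by edgeR, and 8 had an unadjusted p under 0.05, beside 6.86% of all tested genes.

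Of the other receptors, 3 of 30 tested were called lower in miR139-KD and 0 higher, beside 1.31% and 1.41% of all tested genes. Flt3, the receptor tyrosine kinase of early lymphoid and multipotent progenitors, had 31.9 to 60.0 CPM with a median of 36.8 in miR139-KD and 105 to 184 CPM with a median of 141 in NTC. Every miR139-KD library was below every NTC library, and Flt3 fell by 1.80 on the log2 scale (SE 0.179, adjusted p = 3.52e-04 in edgeR), which held with any 1 library left out. Il10rb, a chain shared by interleukin-10 family receptors, had 14.5 to 24.04 CPM in miR139-KD and 28.1 to 66.8 CPM in NTC (log2 fold change -1.29, SE 0.260, adjusted p = 0.0162 in edgeR). Ifnar2, a chain of the type I interferon receptor, had 34.0 to 79.6 CPM in miR139-KD and 71.2 to 106 CPM in NTC (-0.84, SE 0.195, adjusted p = 0.0346 in edgeR). The Ifnar2 call was lost without any of NTC replicates 1, 2, 3, 5 and 6 or of miR139-KD replicates 1, 2, 4, 5 and 6, with adjusted p up to 0.0707.

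In PUS10-OE Flt3 stood at 37.4, 17.1 and 49.5 CPM, against 76.8, 86.5 and 91.4 CPM in Vector. All PUS10-OE libraries were lower, with a log2 fold change of -1.30 (SE 0.345), an edgeR adjusted p of 0.393 and a DESeq2 adjusted p of 0.00773. Il1r1, a receptor of interleukin-1, had the lowest p of the other receptors there, at 11.1, 11.95 and 14.3 CPM in PUS10-OE and 17.1, 31.0 and 31.7 CPM in Vector in rising order, a log2 fold change of -1.11 (SE 0.271, adjusted p = 0.361 in edgeR and 0.0140 in DESeq2). Il1r1 also had lower values in miR139-KD, 0 to 14.1 CPM against 18.6 to 48.9 CPM in NTC without overlap, and was not called (log2 fold change -2.35, edgeR adjusted p = 0.101). In Pus10-KO Flt3 was at or below 8.47 CPM and in Pus10-WT at or below 6.21 CPM. Il2rg, the common gamma chain that partners Il7r, had the lowest p of the other receptors there, with 50.3 to 62.3 CPM in Pus10-KO and 70.5 to 94.5 CPM in Pus10-WT (log2 fold change -0.67, edgeR adjusted p = 0.508).

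Of 6 tested ligands, 1 was called in miR139-KD, where 2.72% of all tested genes were called. Angpt1, the angiopoietin that activates Tek, was this ligand, with 154 to 186 CPM and a median of 166 in miR139-KD. In NTC it had 82.4 to 158 CPM with a median of 94.5. All 6 miR139-KD libraries were above the NTC median and 1 NTC library overlapped them, and Angpt1 was 1.61-fold higher (log2 fold change 0.68, SE 0.148, adjusted p = 0.0257 in edgeR). The call was lost without NTC replicate 3 or 4 (adjusted p = 0.0594 and 0.0574) and without miR139-KD replicate 1 or 6 (0.0508 and 0.0516). Of 23 negative regulators 0 were called, and 5 had an unadjusted p under 0.05, beside 16.0% of all tested genes. The lowest p was that of Socs2, a STAT5-induced inhibitor of cytokine signalling, at 21.2 to 30.6 CPM in miR139-KD and 9.82 to 18.8 CPM in NTC. Socs2 was not called in the main edgeR fit (log2 fold change 0.75, SE 0.240, adjusted p = 0.122). It was called in DESeq2 (adjusted p = 0.0196) and in edgeR with all 6 groups in 1 fit (adjusted p = 0.00843).

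Among the 10 STAT5 targets, 3 were called lower in miR139-KD, where 1.31% of all tested genes were called lower. Ccnd3, the G1 cyclin D3, had 97.4 to 203 CPM in miR139-KD and 276 to 558 CPM in NTC, and fell by 1.44 on the log2 scale (SE 0.197, adjusted p = 0.00148 in edgeR). Pim2, a survival kinase, had 5.70 to 26.1 CPM in miR139-KD and 26.2 to 48.2 CPM in NTC (log2 fold change -1.30, SE 0.305, adjusted p = 0.0348 in edgeR), and Myc, the growth-promoting transcription factor, had 185 to 300 CPM in miR139-KD and 259 to 483 CPM in NTC (-0.62, SE 0.154, adjusted p = 0.0460 in edgeR). Groups were separate for Ccnd3 and Pim2 and overlapped for Myc. The Pim2 call was lost without NTC replicate 1, 2, 3, 4 or 6 or miR139-KD replicate 1, 4 or 6 (adjusted p up to 0.0813), and the Myc call without NTC replicate 2, 3, 4 or 6 or miR139-KD replicate 1, 3, 4, 5 or 6 (adjusted p up to 0.104). The replicate block also ended the calls of Pim2 (adjusted p = 0.119) and Ifnar2 (0.0553), and a fit with no filter on low counts ended that of Myc (0.0532), all in edgeR. Over the whole list, 5 targets had positive and 5 had negative fold changes.

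**Figure D5:**
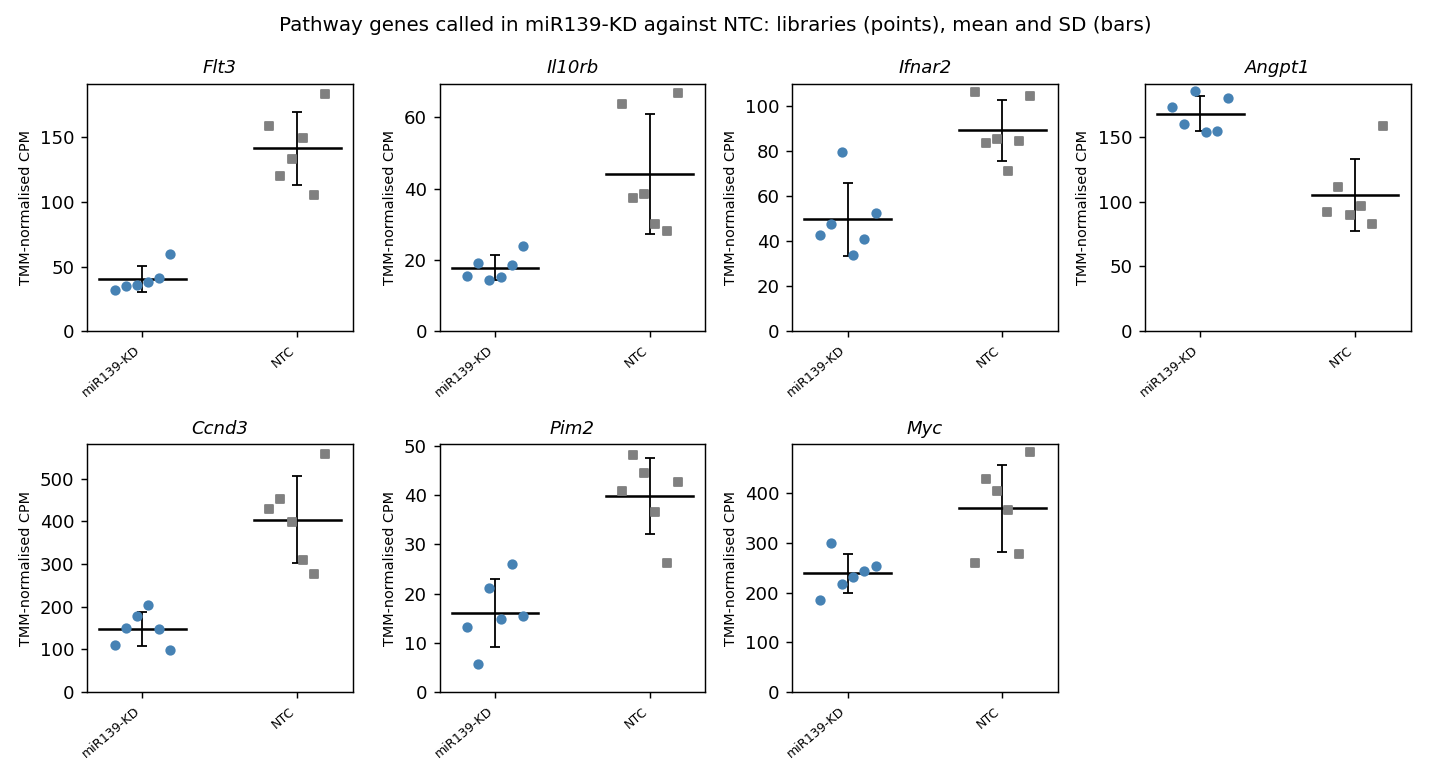
TMM-normalised CPM in each library (points) with mean and SD (bars) of 7 further pathway genes with an edgeR adjusted p under 0.05 in miR139-KD against NTC. Angpt1 is higher in miR139-KD and the other 6 lower, and the points of the groups overlap for Ifnar2, Angpt1 and Myc.

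In the other experiments the gene with the lowest p of each list was as follows, none of them called by edgeR, while DESeq2 called Dusp6 (adjusted p = 0.00118) and Stat5b (adjusted p = 0.0298) in PUS10-OE. In PUS10-OE, Dusp6, a phosphatase that dampens ERK signalling, ran from 72.9 to 114 CPM, against 158 to 184 CPM in Vector (log2 fold change -0.83, SE 0.177, adjusted p = 0.337 in edgeR). Stat5b, a main STAT of Epor and Il7r signalling, ran from 31.6 to 35.9 CPM in PUS10-OE and from 45.8 to 52.0 CPM in Vector (-0.53, SE 0.141, adjusted p = 0.393 in edgeR). The ligand Angpt2 was at or below 1.26 CPM in PUS10-OE and 0.218 CPM in Vector, and the cytokine gene Osm, a STAT5 target, at 2.31 to 3.52 CPM in PUS10-OE and 3.14 to 10.4 CPM in Vector. In Pus10-KO, Tslp, a ligand whose receptor includes Il7r, ran from 10.7 to 21.2 CPM, against 5.06 to 10.4 CPM in Pus10-WT (log2 fold change 1.12, SE 0.457, adjusted p = 0.696 in edgeR). Pias1, an inhibitor of activated STATs, ran from 81.0 to 106 CPM in Pus10-KO and from 123 to 142 CPM in Pus10-WT (-0.54, SE 0.150, adjusted p = 0.508 in edgeR). Stat5a was at 117 to 159 CPM in Pus10-KO and 95.5 to 108 CPM in Pus10-WT (0.40, edgeR adjusted p = 0.656), and Pim2 at 79.9 to 102 CPM in Pus10-KO and 81.7 to 174 CPM in Pus10-WT (-0.58, edgeR adjusted p = 0.774).

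Within groups, the receptors did not vary as 1 block. As a description, Pearson's r of log2(CPM + 1), as deviations from the group mean over the 24 libraries, was highest between Csf2rb and Epor (0.66) and lowest between Il7r and Kit (-0.35), and the chains of 1 receptor had values near 0, 0.06 for Csf2ra with Csf2rb and 0.17 for Il3ra with Csf2rb. Among 10902 genes averaging at least 5 CPM, those most like Csf3r were Atp6v0d1 (0.77), Trappc5 (0.75) and Sdr39u1 (0.74), those most like Il7r were Clspn (0.75), Id2 (0.75) and Zfp956 (0.75), and those most like Tek were 8430429K09Rik (0.80), Eml3 (0.75) and 2310009A05Rik (0.70). For Kit they were Lipe, Arhgap31 and Ldb1 (0.76 to 0.74), for Epor Lrrc8c, Igsf3 and Col5a1 (0.78 to 0.75), for Csf2ra Psap, Vgll4 and Maf1 (0.81 to 0.76) and for Csf2rb Reep5 (0.77) and Fem1c (0.75). For Csf1r they were Map7d1, Prg2 and Ranbp6 (0.74 to 0.71) and for Il3ra Pigs, Gm13736 and Tkt (0.75 to 0.69). Values from the same library share its depth and its mixture of cells, and each of these genes was picked as the best of the 10902 compared.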

How the data were processed

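RNA of sorted mouse HSCs was copied, amplified and tagmented by Tn5 in the Smart-seq2 manner, per the labels' protocols, which marks no strand. The authors deposited whole-number read counts per gene for 55487 Ensembl IDs, without normalization. The submitters' processing notes name HISAT2 2.1.0, HTSeq 0.11.2 and the build mm10, and give no annotation release. GENCODE M21 (GRCm38) supplied symbols for 55394 IDs, with coordinates and exon lengths.

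The 5 summary entries of each file, with 3.70% to 12.0% of reads in no gene and 6.53% to 20.1% ambiguous, stayed out of library sizes. The 2 groups of an experiment were fitted without the other groups in R 4.3.3 and edgeR 4.0.16 (filterByExpr, TMM, robust two-sided quasi-likelihood F test, Benjamini-Hochberg adjustment over all genes tested). Levels are CPM with TMM factors over all 24 libraries, while each fit used factors of its own libraries. SE and 95% intervals were derived from the fold change and the F statistic. The fit was also run on simulated counts, with changes planted only in genes above a set mean level. That simulation does not cover genes of low mean level, and its results are not given here. Sampling noise did not account for the difference of any of the 42 library pairs inside groups (chi-square at least 30.1 per degree of freedom). Reads have no molecular identifiers, so depth and the 3-count floor cover counting error only.

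Named further genes were, per list and comparison, the up to 4 called genes with the lowest p, or 1 where none was called, beside Flt3 and Csf2rb2. Some genes that met a rule are not reported here. Members and lists were chosen with earlier results of these data known. Alternatives were DESeq2 1.42.0, limma-voom (limma 3.58.1), other scalings and filters, a replicate block, a joint fit, and libraries left out. Figures used matplotlib 3.10.9 in Python 3.11.15.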

Additional observations from a re-analysis of the deposited data

Results flagged for a closer look

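Genes and marker sums in miR139-KD and NTC gave 42 sets of 6 values. In 4 of these sets a library stood apart by Dixon's criterion (gap to the nearest library over the range of the set above 0.625). Chance flags about 1 in 20 sets of normally distributed values. The sets here came from the same libraries and held CPM without log scaling, so this rate is only a rough guide. Flt3 in miR139-KD replicate 6 stood at 60.0 CPM, with the other 5 libraries at 31.9 to 41.4 CPM, all below the lowest NTC library.

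The other flags were marker sums. B cell and plasma cell markers reached 15194 CPM in miR139-KD replicate 5, with the others at 185 to 5284 CPM, and 17019 CPM in NTC replicate 5, with the others at 1151 to 2298 CPM. Mast cell and basophil markers reached 2022 CPM in miR139-KD replicate 6, with the others at 20.8 to 68.4 CPM. That library had 10.5 CPM of Il3ra, 223 CPM of Kit and 30.4 CPM of Csf2rb, the highest Csf2rb value in miR139-KD. Replicate 4, with 36.1 CPM of these markers, had 30.1 CPM of Csf2rb. The part of mast cells and basophils in these values was not tested. The Il7r values of the replicate 5 libraries stand beside their marker sums above.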

How the results depend on the processing

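In PUS10-OE against Vector DESeq2 called 1 receptor gene and 5 further pathway genes, and all other alternatives called 0 of either. In Pus10-KO against Pus10-WT no alternative called any. In miR139-KD against NTC, receptor calls (1) came to 3 with DESeq2, 0 with the replicate block, 0 to 1 with 1 library left out, and 0 with miR139-KD replicate 1 and NTC replicate 6 both left out. Pathway calls (8) came to 18 with DESeq2, 13 with the 10 CPM filter, 16 with all 6 groups in 1 fit, 5 with the replicate block, 4 to 8 with 1 library left out, and 3 without that pair of libraries. The replicate numbers were not shown to pair libraries (correlations of same-numbered deviations -0.020 to 0.020), and with the replicate block Csf3r in miR139-KD stood at a log2 fold change of -1.28 (adjusted p = 0.0812 in edgeR). The cause of these changes was not tested.

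Signs turned only for values that were not called. For Il3ra in PUS10-OE the log2 fold change was -0.44 with limma-voom and -0.12 with the replicate block, for Il7r in Pus10-KO -2.42 and -1.34, and for Flt3 in Pus10-KO -0.76 and -0.10, and Csf2ra in miR139-KD was at 0.14 without replicate 5 of both groups. With 1 library left out, Il3ra ran from -0.51 to 0.61 and Csf2rb2 from -0.61 to 0.42 in PUS10-OE. In miR139-KD Csf1r ran from -0.76 to 0.63 and Csf2ra from -0.26 to 0.12. In Pus10-KO Tek ran from -0.42 to 0.21, Epor from -0.68 to 1.35, Csf1r from -0.95 to 9.61, Csf3r from -0.22 to 0.11 and Il7r from -1.66 to 0.73. Of the 24 libraries, Csf1r had 0 counts in 6 and Il7r in 8, where depth allows only an upper limit.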
